A study of Mus musculus with 32 samples.

Results

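The Wnt pathway genes described here were 45 of the 34821 gene names of the array, measured by 57 of its 55681 probes. They were chosen by name: every Wnt ligand and Frizzled receptor on the array, the co-receptors Lrp5 and Lrp6, the secreted antagonists Dkk1, Dkk2, Dkk3, Sfrp1, Sfrp2 and Sfrp5, the R-spondin Rspo3 with Lgr5, Rnf43 and Znrf3, and Axin1, Axin2, Tcf7 and Lef1 inside the cell. Of these genes, 12 had several probes, and each gene is represented below by the probe that stood well above background on the most channels.

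RNA was compared in 8 groups of 4 samples from Balb/c mice. The TME (tumor microenvironment) groups were endothelial cells (ET), Ito cells (IT) and Kupffer cells (KT) isolated from livers of male mice, 6 to 8 weeks old, 14 days after C26 colon carcinoma cells, a murine line syngeneic with this strain, were injected into the spleen. The control groups (EC, IC and KC) were the same 3 cell types from mice given buffer. The other groups were tumor liver metastasis cells (TM) and CRC primary cells (TP), and how these 2 were obtained is not given in the sources used here. Ito is the older name for hepatic stellate cells, which store retinoids, and Kupffer cells are macrophages that live in the sinusoids. The isolated cells were kept in culture for at most 24 h. The labels do not say whether the 4 samples of a group came from separate animals, so the p-values below measure only the spread between these samples.

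Wnt ligands are secreted lipid-modified proteins that bind a Frizzled receptor together with the co-receptor Lrp5 or Lrp6. Binding stops the complex around Axin from destroying beta-catenin, which then acts with Tcf and Lef factors on target genes such as Axin2 and Lgr5. Dkk and Sfrp proteins are secreted antagonists, whereas R-spondins bind Lgr receptors and keep the ubiquitin ligases Znrf3 and Rnf43 from removing Frizzled. In the liver, Wnt2, Wnt9b and Rspo3 made by endothelial and stellate cells are known to set the zonation of hepatocytes.

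The members were read by probes of 60 bases, and the first 30 bases of 6 are shown so that the measured stretch of each transcript is identified: Wnt10a and Dkk2, found in tumor alone, Rspo3, Fzd1 and Fzd4, higher in the liver cells, and Dkk3, which had the widest gap between Ito and endothelial cells. The positions are those of the array file on mm9, each covering the whole probe. Wnt10a was read at chr1:74850633-74850692 (+), Dkk2 at chr3:131842357-131842416 (+), Rspo3 at chr10:29172930-29172989 (-), Fzd1 at chr5:4754003-4754062 (-), Fzd4 at chr7:96557478-96557537 (+) and Dkk3 at chr7:119259556-119259615 (-).
Wnt10a: tttcacttaacagatatttatttttgcgct
Dkk2: tcagagtgatgatgtcatcagaagtttata
Rspo3: ggatactactttctaacaaggtgtatctag
Fzd1: caaatgccgatacatacataggacctaaat
Fzd4: acacacgtaaggtatccagtggatttctct
Dkk3: gcctgtaaatcgcatctgaagataccacag

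A pair of Frizzled probes resembled each other far more than any other pair of probes of different member genes. The Fzd2 probe at chr11:102467613-102467672 (+) and the second Fzd7 probe at chr1:59541367-59541426 (+) had 42 identical bases in the 50 where they overlap, against 30 in the next closest of 1584 pairs compared. The whole probes are shown, with the identical bases in capitals.
Fzd2: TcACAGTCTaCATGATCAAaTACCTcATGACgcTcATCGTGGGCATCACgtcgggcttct
Fzd7: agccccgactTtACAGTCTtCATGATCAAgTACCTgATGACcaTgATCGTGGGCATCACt
Signal shared between these 2 probes was not tested. Fzd7 is therefore represented below by its other probe, which was also the one well above background on more channels.

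Promoters of RefSeq (GRCm38.p6, 250 bases before to 50 after the start) were at hand for 29 of the 45 genes, with 37 promoters in all. The letters CTTTGA, the core of the site that Tcf and Lef factors bind, were found on either strand in 5 of these 37, those of Dkk1, Fzd1, Lef1, Wnt11 and Wnt5b, beside 16.0% of all 32851 promoters. The GC box GGGCGG stood in 27 of the 37, beside 35.7% of all. The promoters of Dkk2 (chr3:132085042-132085341, +), which was high in tumor, and of Fzd1 (chr5:4758167-4758466, -) and Fzd4 (chr7:89404116-89404415, +), which were high in liver cells, are shown as examples from members that have an entry and were called between tumor and Kupffer cells. Capitals mark either motif on either strand.
Dkk2: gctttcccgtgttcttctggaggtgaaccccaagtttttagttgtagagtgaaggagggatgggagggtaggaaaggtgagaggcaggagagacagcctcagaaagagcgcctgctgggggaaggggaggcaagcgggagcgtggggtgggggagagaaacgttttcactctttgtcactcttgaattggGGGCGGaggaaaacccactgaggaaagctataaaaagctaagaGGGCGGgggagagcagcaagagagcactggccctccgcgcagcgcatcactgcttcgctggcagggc
Fzd1: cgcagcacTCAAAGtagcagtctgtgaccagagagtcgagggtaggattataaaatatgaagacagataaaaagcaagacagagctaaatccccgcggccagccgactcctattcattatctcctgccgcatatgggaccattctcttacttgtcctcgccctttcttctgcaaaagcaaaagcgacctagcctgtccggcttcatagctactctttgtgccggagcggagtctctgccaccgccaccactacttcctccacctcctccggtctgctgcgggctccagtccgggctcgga
Fzd4: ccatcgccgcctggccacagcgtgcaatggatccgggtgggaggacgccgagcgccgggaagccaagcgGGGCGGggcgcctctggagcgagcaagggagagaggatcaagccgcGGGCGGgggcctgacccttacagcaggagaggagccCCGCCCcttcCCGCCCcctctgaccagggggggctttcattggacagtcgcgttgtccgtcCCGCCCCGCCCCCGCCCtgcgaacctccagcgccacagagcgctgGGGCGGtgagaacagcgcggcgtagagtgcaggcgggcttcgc
The Fzd1 promoter held 1 CTTTGA match and no GC box, the Dkk2 promoter 2 GC boxes and the Fzd4 promoter 8. These matches describe letters only.

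The 32 samples were hybridised as the 2 channels of 16 arrays, with the control cells and TM in Cy3 and the TME cells and TP in Cy5 on every array, so that dye cannot be told apart from TME or from TP. A level is the log2 of the deposited normalized intensity, and levels are compared between samples for a probe, never between probes. Between 37.4 and 56.1% of probes per channel stood well above background, as flagged by the scanner software. Endothelial and Ito arrays lay on one slide and Kupffer and tumor arrays on the other, so cell types were compared on array means within a slide, where each mean holds both dyes. The Ito and Kupffer arrays of replicate 4 ran against their labels: over 17105 probes well above background on all channels, their TME minus control differences correlated at -0.66 and -0.60 with the mean of the other 3 arrays of their cell type, compared with 0.19 to 0.47 for those other Ito and Kupffer arrays. The means for those other arrays include array 4. Results that rest on the Ito and Kupffer replicate 4 arrays are given with and without them, and no label was changed. On the tumor arrays the TP minus TM differences of replicates 1 to 4 correlated at -0.20, 0.64, 0.64 and -0.07 with the mean of the others. The tumor arrays thus also differed in direction among themselves.

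The fractions were not free of other cells by their RNA. All 10 endothelial markers were well above background on every channel of every liver group. Their summed level, the log2 of the sum of their intensities, was 16.11 to 16.50 in EC, 14.78 to 15.52 in IC and 14.96 to 15.49 in KC. The brightest markers of a list weigh most in such a sum. All 9 macrophage markers were likewise found in every liver group, at 15.69 to 16.18 in EC, 17.03 to 18.97 in IC and 17.05 to 19.30 in KC. The 12 stellate markers reached 18.01 to 18.37 in EC, 17.09 to 18.17 in IC and 16.42 to 16.76 in KC. By this sum, which single bright markers can set, that list was no higher in Ito than in endothelial cells. The stellate marker Lrat was at background in ET and IT. IT replicate 2 stood apart in the epithelial and cholangiocyte markers, with a summed level of 17.23 against 12.20 to 12.66 on the other Ito channels. Hepatocyte markers reached 16.51 to 18.15 in IC against 14.12 to 14.24 in EC. Replicate 4 set an end of each of these IC ranges. Without it the IC sums were 15.45 to 15.52 (endothelial), 17.03 to 17.22 (macrophage), 17.09 to 17.47 (stellate) and 16.51 to 16.75 (hepatocyte). The highest macrophage sum in KC, 19.30, was also that of replicate 4, beside 17.05 to 18.07 in replicates 1 to 3. Of the 10 endothelial markers, 3 were well above background on all channels of TM and 1 on those of TP. In each of these groups 5 were at background throughout, Cdh5 and Stab2 among them. Of the 9 macrophage markers, 2 were found on all channels of TM and 2 on those of TP. In each 3 were at background throughout, Clec4f and Timd4 among them. Lrat was at background in both groups, as were 6 of the 8 hepatocyte markers, Alb among them. Of the 9 epithelial and cholangiocyte markers, 3 were well above background on all channels of TM and 4 on those of TP, with sums of 11.87 to 13.44 and 10.89 to 13.20, while Epcam, Cdh1 and Vil1 were at background in both. Of the 12 stellate markers 5 were found on all channels of TM and 7 on those of TP. The part of these cells in the differences below was not tested, and in such bulk RNA fewer cells of a type and less RNA per cell cannot be told apart.

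Of the 45 member genes, 5 were well above background on all 32 channels, namely the ligands Wnt1 and Wnt5b, the co-receptors Lrp5 and Lrp6 and the scaffold Axin1. A further 10 were so on no channel: the ligands Wnt2b, Wnt3, Wnt3a, Wnt7a, Wnt8a and Wnt9b, the receptor Fzd10 and the antagonists Dkk1, Sfrp1 and Sfrp2. The other 30 were found on some channels, and 26 genes in all were found on all 4 channels of at least 1 group. EC had 21 genes found on all 4 of its channels, ET, IC and KT had 18, 18 and 16, and IT, KC, TM and TP had 14 each. Wnt1 was read by 2 probes that disagreed, as the second was well above background on none of the 32 channels.

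**Figure D1:**
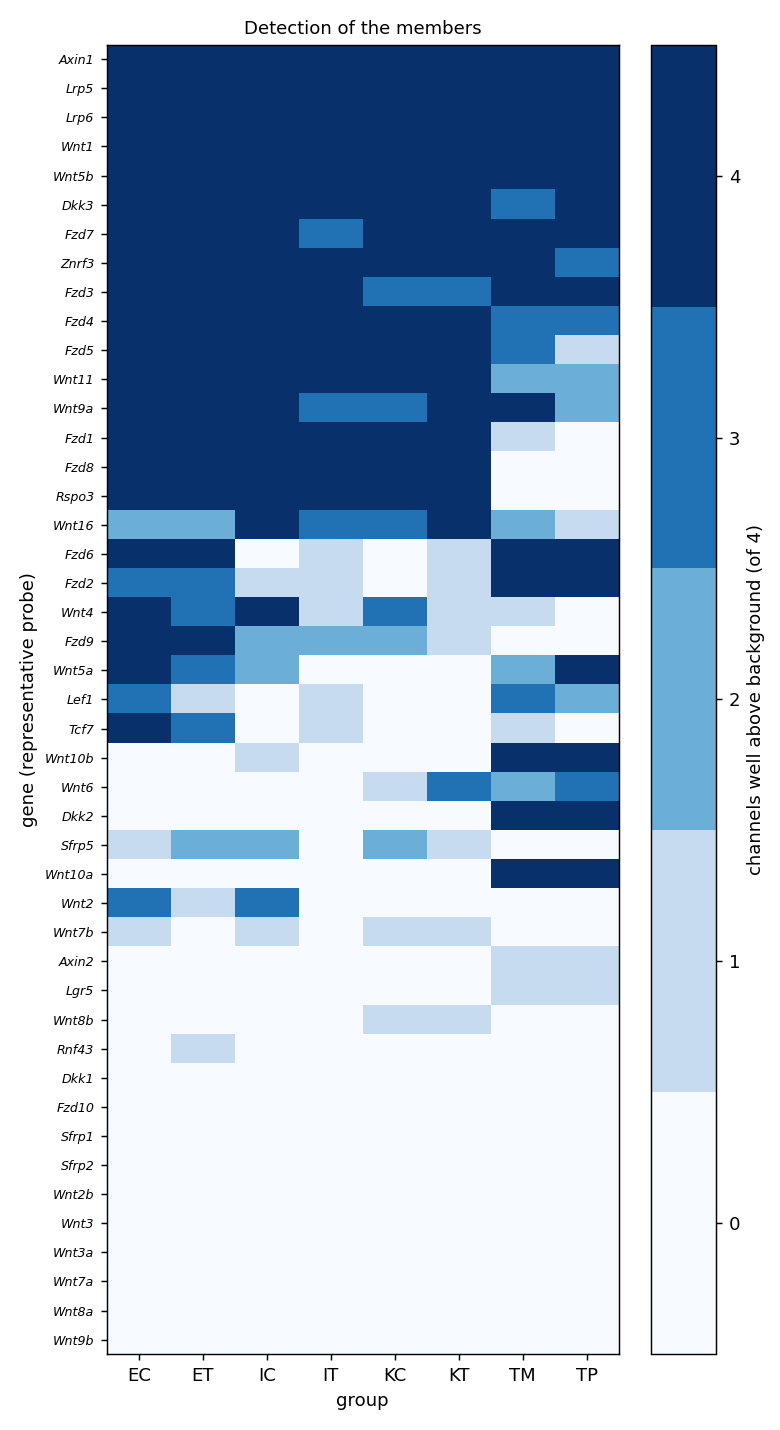
Number of channels, of 4 in each group, on which the representative probe of each member gene (rows) stood well above background, for the 8 groups (columns). The 5 genes at the top were found on all 32 channels and the 10 at the bottom on none, while Wnt10a and Dkk2 filled the TM and TP columns alone.

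The tumor cells differed from the Kupffer cells of the same slide in 25 of the 57 member probes (adjusted p below 0.05, limma), 17 higher and 8 lower, or 43.9% of them beside 48.1% of all probes (28.4% higher and 19.7% lower). By gene, 13 of 45 were higher and 7 lower in tumor. The median size of the difference was 0.50 (log2) over member probes and 0.55 over all probes. Among features found on all 4 channels of a group, 69.2% of the 26 genes were called beside 74.7% of 29017 probes, so a member was not called more often than other probes. At the stricter thresholds of the study (adjusted p below 0.001 and at least 4-fold) 8 member probes were higher and 5 lower, beside 15.2% of all probes. Scaling each channel to its 75th percentile moved the median difference of all probes from 0.11 to 0.55. Of all called probes, the share that were higher went from 59.1% to 70%. Members were then at 27 higher and 8 lower, beside 62.7% of all probes called. Where a member was at background on all channels of one side, its fold is given as a lower bound, taken from values normalized within and between arrays and set against the lowest signal well above background on each channel, which leaves it open to dye bias. Where one side was well above background on some channels alone, the size of the difference rests in part on signals at background, and the number of such channels is given for the members furthest apart.

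Among the ligands, Wnt10a was the member with the widest gap. It read 13.11, 14.15, 13.89 and 13.37 in the 4 TM samples and 12.90, 13.05, 12.79 and 13.06 in the 4 TP samples. In the 24 liver channels it read 1.85 to 3.93 and was at background on all of them, so the groups lay far apart. It was at least 155-fold higher in tumor than in Kupffer cells (array means 13.29 ± 0.25 against 2.04 ± 0.06, SD, n = 4, adjusted p = 4.25e-15). Wnt10b, its close relative, read 8.23, 7.15, 7.31 and 6.89 in TM and 6.91, 7.01, 8.0 and 7.94 in TP. All 8 tumor channels were well above background while all 8 Kupffer channels, at 2.43 to 4.28, were not, and the level was at least 2.77-fold higher in tumor (adjusted p = 1.28e-07). The probe of Wnt6, a ligand gene 19.1 kb from the Wnt10a probe on chromosome 1, was well above background on 5 of 8 tumor and 4 of 8 Kupffer channels and on none of the endothelial or Ito channels. Wnt6 read 7.14, 3.69, 4.45 and 6.58 in TM, 6.05, 5.61, 5.43 and 4.38 in TP, 3.33, 2.90, 3.25 and 5.09 in KC and 4.82, 4.41, 4.77 and 3.21 in KT, and its array mean was higher in tumor by 1.44 (SE 0.34, adjusted p = 2.29e-03).

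Wnt5a and Wnt5b, ligands best known for signalling without beta-catenin, were also higher in tumor, but not in all its samples. Wnt5b read 8.35, 5.42, 4.91 and 8.50 in TM and 8.94, 8.67, 8.03 and 8.11 in TP, with an array mean 1.66 above the Kupffer mean of 5.96 ± 0.05 (SE 0.38, adjusted p = 2.10e-03). Wnt5a read 6.70, 1.81, 2.98 and 7.58 in TM and 6.97, 7.22, 6.17 and 6.52 in TP, while all Kupffer channels were at background. TM replicates 2 and 3 were the low ones for both genes. Wnt5a was at least 2.01-fold higher in tumor over all channels (adjusted p = 0.0287). Wnt9a, a canonical ligand, read 5.43, 6.47, 6.75 and 5.64 in TM and 5.75, 6.39, 5.25 and 4.91 in TP and was higher by 1.09 (SE 0.20, adjusted p = 2.53e-04). Wnt16, the only called ligand that was lower in tumor, read 2.06, 4.73, 5.31 and 5.12 in TM and 4.29, 4.00, 5.80 and 2.31 in TP, beside 5.72, 5.58, 4.15 and 5.25 in KC and 5.33, 5.77, 5.67 and 5.91 in KT. These overlapped (difference -1.22, SE 0.45, adjusted p = 0.0376, exact permutation p = 0.0857).

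The Frizzled receptors split by gene. Fzd2, Fzd3, Fzd6 and Fzd7 were higher in tumor and Fzd1, Fzd4, Fzd5 and Fzd8 were lower, while Fzd9 was not called and Fzd10 was at background throughout. Fzd2 read 10.03, 9.50, 9.58 and 10.21 in TM and 9.90, 9.94, 9.79 and 9.63 in TP. It read 3.35, 3.75, 2.86 and 3.82 in KC and 4.54, 4.01, 4.27 and 3.23 in KT, of which 1 of the 8 channels was well above background (log2 difference 6.09, SE 0.25, adjusted p = 4.93e-11). The second Fzd2 probe was at background on every channel, and the second Fzd7 probe, the one resembling that of Fzd2, was at least 1.45-fold higher in tumor (adjusted p = 1.22e-05). The other Fzd7 probe was higher by 0.51 (SE 0.16, adjusted p = 0.0181), a call lost after scaling to the 75th percentile (0.40, adjusted p = 0.0688).

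Fzd6 read 7.86, 6.92, 7.0 and 7.63 in TM, 8.11, 7.96, 8.23 and 7.56 in TP, 3.16, 2.99, 2.82 and 3.48 in KC and 3.41, 4.48, 2.88 and 4.43 in KT. Every tumor channel lay above every Kupffer channel, of which 1 of 8 was well above background (log2 difference 4.20, SE 0.25, adjusted p = 2.08e-09). Fzd3 read 8.15, 7.32, 7.30 and 8.05 in TM, 7.82, 8.30, 8.21 and 8.53 in TP, 4.83, 4.76, 2.47 and 5.02 in KC and 4.96, 4.51, 4.75 and 5.01 in KT. Again the groups did not overlap, with 6 of 8 Kupffer channels well above background, and the means were 3.42 apart (log2, SE 0.26, adjusted p = 3.93e-08).

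Fzd1 was the receptor with the widest gap in the other direction. It read 8.63, 8.59, 9.66 and 9.05 in KC and 9.09, 9.14, 9.15 and 8.60 in KT. It read 4.33, 2.22, 2.23 and 5.97 in TM and 5.02, 2.19, 2.21 and 5.47 in TP, of which only TM replicate 4 was well above background (log2 difference -5.28, SE 0.62, adjusted p = 3.54e-06). The lowest tumor values were the 4 channels of arrays 2 and 3. Fzd8 read 6.98, 6.63, 7.23 and 6.72 in KC and 6.79, 6.71, 6.44 and 6.82 in KT, and 2.67 to 3.83 on the 8 tumor channels, all at background, so that it was at least 1.91-fold lower in tumor (adjusted p = 1.53e-11). Fzd4, a receptor known for its role in vessels, read 6.37, 5.09, 5.77 and 5.63 in TM and 6.66, 6.14, 6.33 and 6.27 in TP. In KC it read 9.36, 9.27, 10.85 and 8.71 and in KT 8.70, 8.75, 8.85 and 9.48, with no overlap, 6 of 8 tumor channels well above background and means 9.29-fold apart (log2 -3.22, SE 0.20, adjusted p = 3.46e-09). Fzd5 was lower in tumor by both of its probes, by -0.88 (SE 0.15, adjusted p = 1.27e-04) and -1.52 (SE 0.17, adjusted p = 1.91e-06), with 4 and 1 of the 8 tumor channels well above background and the first reading 3.83 to 5.47 in tumor and 5.24 to 6.19 in Kupffer cells.

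Of the co-receptors, Lrp6 was higher in tumor and Lrp5 was not called, nor was the scaffold Axin1. Lrp6 read 10.54, 11.19, 11.17 and 10.57 in TM and 10.37, 10.33, 9.996 and 10.73 in TP and was higher than in Kupffer cells by 1.15 (SE 0.13, adjusted p = 3.60e-06), while its second probe gave 0.31 (SE 0.11, adjusted p = 0.0253). In KC Lrp6 read 9.64, 9.64, 10.62 and 9.07 and in KT 9.0, 9.06, 9.14 and 9.52. Lrp5 had array means of 9.68 ± 0.15 on the endothelial arrays, 9.88 ± 0.23 on those of Ito cells, 9.92 ± 0.26 for Kupffer cells and 9.98 ± 0.23 for the tumor. Axin1 had means of 9.84 ± 0.11, 10.07 ± 0.20, 9.78 ± 0.08 and 9.98 ± 0.35 in the same order, and neither gene was called in any comparison (SD, n = 4 arrays each).

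Among the secreted antagonists, Dkk2 was high in tumor alone. It read 11.33, 9.97, 9.80 and 11.18 in TM and 11.04, 10.90, 11.39 and 11.71 in TP, against 2.08 to 3.01 on the 24 liver channels, all at background. It was at least 28.8-fold higher in tumor than in Kupffer cells (array means 10.91 ± 0.48 against 2.14 ± 0.02, SD, n = 4, adjusted p = 9.98e-14). Dkk3, a divergent member of the Dkk family, read 10.19, 5.0, 5.12 and 12.15 in TM and 11.76, 11.15, 10.11 and 10.66 in TP. Beside 8.04, 8.04, 9.35 and 7.50 in KC and 7.71, 7.90, 8.05 and 8.33 in KT it overlapped, was not called (1.40, adjusted p = 0.103) and gave -0.12 between TM and KC but 2.92 between TP and KT. Sfrp1, Sfrp2 and Dkk1 were at background on all channels, and Sfrp5 was well above background on 8 of the 32 channels, none of them tumor.

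In the R-spondin module, Rspo3 was high in every liver sample and at background in every tumor sample. It read 11.57, 11.64, 11.27 and 10.61 in KC and 10.82, 10.87, 10.75 and 11.72 in KT, against 2.80, 2.63, 2.52 and 4.13 in TM and 2.73, 2.37, 2.42 and 2.87 in TP. It was at least 24.1-fold lower in tumor (adjusted p = 7.85e-14). Znrf3, the ligase that R-spondins inhibit, read 8.53, 8.40, 7.12 and 8.39 in KC and 8.32, 8.43, 8.34 and 8.39 in KT. In TM it read 5.47, 6.78, 6.19 and 5.51 and in TP 5.57, 5.17, 5.65 and 2.37, below every Kupffer value and well above background on 7 of the 8 channels, with means 7.48-fold apart (log2 -2.90, SE 0.40, adjusted p = 1.99e-05). The related ligase Rnf43 was well above background on 1 channel, in ET. The receptor Lgr5 was well above background on 2 channels, at 6.35 in TM replicate 2 and 6.81 in TP replicate 2, which share an array.

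Of the nuclear factors, Lef1 was found in some tumor samples. It read 4.95, 9.45, 9.12 and 5.14 in TM and 3.87, 6.74, 6.90 and 5.25 in TP, and the high values were those of replicates 2 and 3 in both groups. Kupffer channels were at background, which made tumor at least 2.24-fold higher (adjusted p = 5.72e-04), and the second Lef1 probe went the same way (adjusted p = 0.0201). The target Axin2 was well above background on 2 channels alone, at 4.86 in TM replicate 3 and 5.50 in TP replicate 3.

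**Figure D2:**
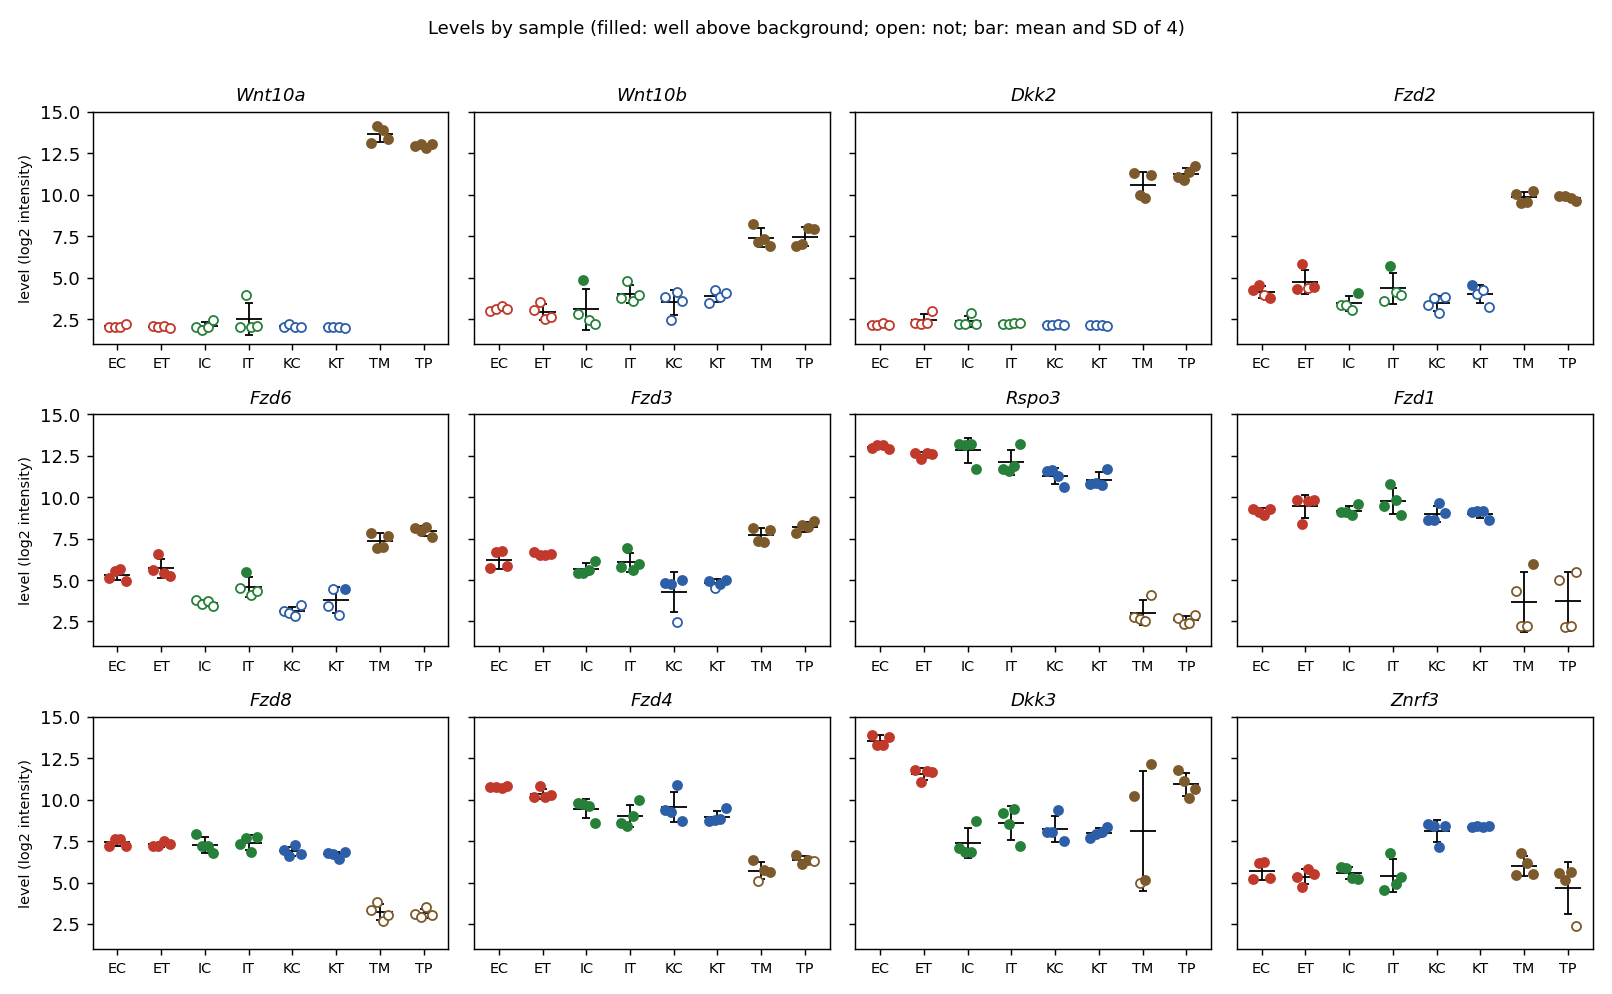
Levels (log2 intensity) of 12 members in each sample of the 8 groups, with the mean and SD of 4 as bars; filled points are well above background and open points are not. Wnt10a, Dkk2, Fzd2, Fzd6 and Fzd3 sit highest in TM and TP, and Rspo3, Fzd1, Fzd8 and Fzd4 sit lowest there.

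Ito cells differed from endothelial cells of the same slide in 9 of the 57 member probes, 2 higher and 7 lower, beside 17.1% of all probes (6.7% higher and 10.4% lower). By gene 2 were higher and 6 lower. The median size of the difference was 0.26 over member probes and 0.25 over all probes, and 26.9% of the 26 genes found in a group were called beside 30% of 29017 probes. Scaling to the 75th percentile moved the share of called probes that were higher, over the whole array, from 39.2% to 57.1%. It left members at 3 higher and 6 lower, beside 19.1% of all probes called. Leaving out replicate 1 or replicate 4 of every group left 4 members called, beside 10.2% and 10.4% of all probes. Leaving out the array of Ito replicate 2 left 10 called, 1 higher and 9 lower, beside 20.2% of all probes.

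Dkk3 had the widest gap between these cell types. It read 13.87, 13.27, 13.27 and 13.80 in EC and 11.80, 11.04, 11.75 and 11.64 in ET. It read 7.07, 6.85, 6.86 and 8.72 in IC and 9.18, 8.53, 9.44 and 7.18 in IT, so every endothelial value lay above every Ito value. The array means were 12.56 ± 0.30 and 7.98 ± 0.21 (SD, n = 4), 23.8-fold apart (log2 -4.58, SE 0.67, adjusted p = 2.88e-04), with -6.18 between the control groups and -2.97 between the TME groups.

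The receptors Fzd4 and Fzd6 were also lower in Ito cells. Fzd4 read 10.77, 10.76, 10.68 and 10.79 in EC, 10.15, 10.79, 10.14 and 10.29 in ET, 9.79, 9.74, 9.64 and 8.58 in IC and 8.60, 8.43, 9.03 and 9.95 in IT, without overlap (-1.33, SE 0.20, adjusted p = 3.64e-04). Fzd6 read 5.15, 5.52, 5.64 and 4.94 in EC and 5.63, 6.55, 5.43 and 5.22 in ET. It read 3.79, 3.54, 3.71 and 3.41 in IC and 4.51, 5.46, 4.07 and 4.31 in IT, where only 1 of the 8 channels was well above background (-1.41, SE 0.25, adjusted p = 1.21e-03).

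The other called members lay nearer to background. Wnt4 read 6.13, 6.37, 6.10 and 6.18 in EC, 5.92, 7.16, 5.02 and 5.54 in ET, 4.35, 4.03, 4.37 and 5.16 in IC and 3.85, 5.21, 4.47 and 5.40 in IT (-1.45, SE 0.47, adjusted p = 0.0486, and -1.52, adjusted p = 5.77e-03, by its second probe). The Wnt4 call was lost with the replicate number as a block (adjusted p = 0.0578). Tcf7, a nuclear partner of beta-catenin, read 4.36, 4.80, 4.68 and 4.54 in EC and 4.24, 4.52, 4.62 and 3.99 in ET, against 3.30, 1.82, 2.61 and 3.74 in IC and 2.11, 5.47, 2.05 and 2.91 in IT (-1.46, SE 0.40, adjusted p = 0.0197). Of the Ito channels only IT replicate 2, the highest of all, was well above background. Wnt9a read 5.36, 5.94, 5.53 and 5.40 in EC, 6.23, 5.74, 6.18 and 6.02 in ET, 5.15, 4.44, 4.66 and 5.10 in IC and 5.31, 6.06, 5.66 and 4.39 in IT (-0.70, SE 0.20, adjusted p = 0.0233). Wnt16 went the other way, at 3.91, 3.25, 4.50 and 4.05 in EC, 3.55, 3.77, 3.74 and 4.43 in ET, 5.90, 6.32, 5.71 and 4.97 in IC and 5.69, 2.36, 6.33 and 6.06 in IT (1.52, SE 0.45, adjusted p = 0.0317). IT replicate 2 lay below all endothelial values and the other 7 Ito values lay above them. Wnt8a was called higher as well (adjusted p = 0.0428) but stood at background on all channels, so it had no measured level on either side.

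**Figure D3:**
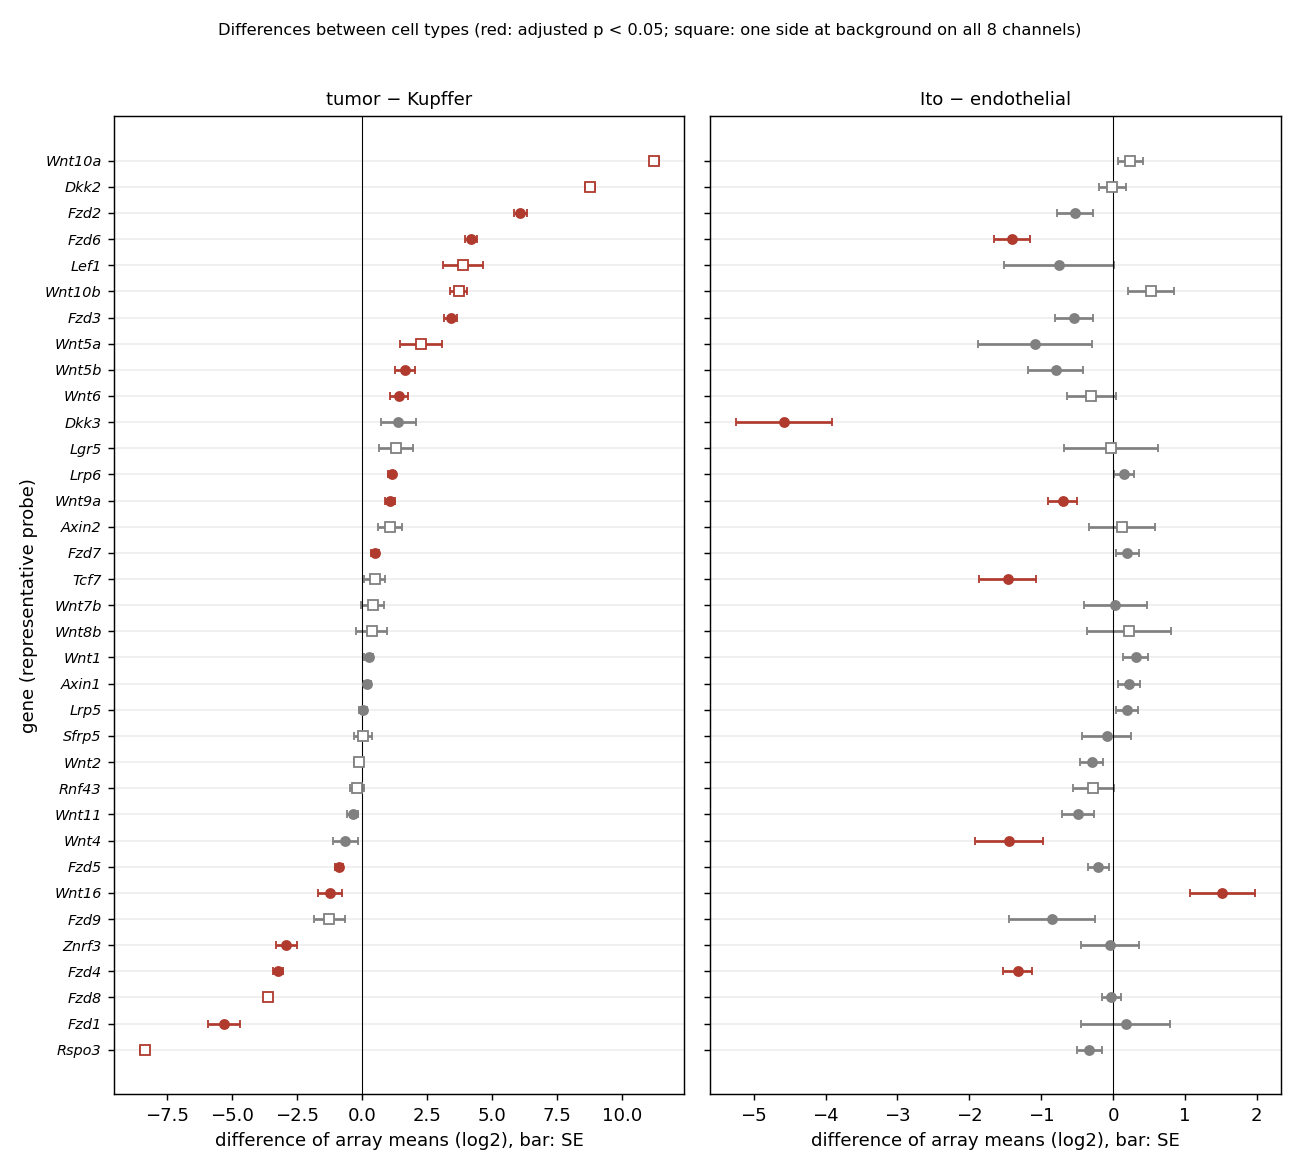
Differences of array means (log2, with SE bars) for members found on at least 1 channel, tumor minus Kupffer at left and Ito minus endothelial at right; red marks an adjusted p below 0.05 and a square marks a gene at background on all 8 channels of one side. The tumor differences run from 11.25 for Wnt10a to -8.35 for Rspo3, and the Ito differences lie nearer to 0 except for Dkk3 at -4.58.

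Kupffer cells lay on another slide than endothelial and Ito cells, and slide and cell type cannot be told apart in these comparisons. Against endothelial cells 17 of 57 probes were called, 4 higher and 13 lower, beside 30.5% of all probes. Against Ito cells 9 were called, 3 higher and 6 lower, beside 23.5%. Znrf3 was higher in Kupffer than in either (2.71, SE 0.40, adjusted p = 1.09e-04, and 2.75, SE 0.40, adjusted p = 1.60e-04), and its 8 Kupffer values of 7.12 to 8.53 lay above the 16 endothelial and Ito values of 4.58 to 6.79. Fzd7 was higher too (1.46, SE 0.16, adjusted p = 9.67e-06, and 1.26, SE 0.16, adjusted p = 6.20e-05), with Kupffer values of 6.53 to 7.38. Rspo3 was lower by 1.63 on the log2 scale against endothelial cells (SE 0.18, adjusted p = 6.49e-06) and by 1.30 against Ito cells (SE 0.18, adjusted p = 8.40e-05). The array means of Rspo3 fell from 12.79 ± 0.08 in endothelial cells through 12.46 ± 0.09 (Ito) and 11.15 ± 0.10 (Kupffer) to 2.81 ± 0.48 (tumor), and only the first of these steps was not called. Wnt2, at background in Kupffer and tumor cells, was found on 4 endothelial and 3 Ito channels.

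No member was called between TME and control endothelial cells (0 of 57, limma, adjusted p below 0.05, with 1 at an unadjusted p below 0.05), beside 1.14% of all probes. In Kupffer cells 0 of 57 were called, with 4 at an unadjusted p below 0.05, beside 0.436% of all probes. In Ito cells 1 was called, beside 0.289% of all probes, with 9 at an unadjusted p below 0.05. The called member was Wnt8a, which was at background throughout. The percentages are those called at the adjusted p. Of all 55681 probes, 4293 reached an unadjusted p below 0.05 in endothelial cells, 4106 in Kupffer cells and 5501 in Ito cells. No member was called for a difference of this change between cell types, beside 0.111% of all probes for Ito against endothelial cells, 0.0808% for Kupffer against endothelial and 0.00359% for Kupffer against Ito. In the same order 2, 0 and 3 of the 57 reached an unadjusted p below 0.05 (limma), beside 2480, 2162 and 2300 of all 55681 probes.

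Dkk3 was lower in ET than in EC on each of the 4 arrays, by -2.07, -2.23, -1.53 and -2.16 (log2). The groups did not overlap, with an exact permutation p of 0.0286, the smallest that 4 against 4 can give. Its adjusted p was 0.651 in the fit of all groups (-2.00, SE 0.97) and 2.95e-03 in a fit of EC and ET alone, so the call depended on which samples set the spread. On the Ito arrays Dkk3 went up by 2.11, 1.68 and 2.58 on replicates 1 to 3 and by -1.53 on replicate 4 (1.21, adjusted p = 0.728). The difference between the 2 cell types was 3.21 with all arrays (adjusted p = 1) and 4.12 without the replicate 4 arrays of Ito and Kupffer cells (adjusted p = 0.232). Fzd7 was higher in ET on each array, by 1.19, 0.88, 0.50 and 1.02, without overlap (0.90, SE 0.33, adjusted p = 0.324, and adjusted p = 0.0109 without those replicate 4 arrays). Rspo3 in endothelial cells read 12.93, 13.12, 13.12 and 12.90 in EC and 12.63, 12.31, 12.69 and 12.60 in ET, without overlap but not called (-0.46, SE 0.36, adjusted p = 1).

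In Ito cells the members followed the array. Rspo3 read 13.21, 13.12, 13.23 and 11.70 in IC and 11.72, 11.57, 11.90 and 13.21 in IT, so the value of replicate 4 in each group was like those of replicates 1 to 3 in the other group. Its TME minus control difference was -1.49, -1.55, -1.33 and 1.51 on the 4 arrays, and -0.72 (SE 0.36, adjusted p = 0.526) in all. Of 15 member probes well above background on all 8 Ito channels, 13 had the opposite sign on array 4 from the mean of the others. On the Kupffer array 4 this held for 15 of 16.

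Without the replicate 4 arrays of Ito and Kupffer cells, 8 of 57 member probes were called in Ito cells, 2 higher and 6 lower, beside 7.66% of all probes. Rspo3 was lower by -1.46 (SE 0.26, adjusted p = 1.27e-03), Fzd4 by -1.03 (adjusted p = 0.0461) and Lrp6 by -0.79 and -0.85 with its 2 probes (adjusted p = 0.0356 and 7.77e-04). Wnt7b was also called lower (adjusted p = 0.0237), with 1 IC channel and no IT channel well above background. Fzd7 was higher by 1.00 (adjusted p = 5.69e-03), and Wnt8a at background was called again. With all arrays these gave -0.43 for Fzd4 (adjusted p = 0.741), -0.34 for Lrp6 (0.726, an adjusted p) and 0.27 for Fzd7 (adjusted p = 0.871). Wnt2 read 4.40, 4.75, 4.45 and 3.25 in IC and 2.26, 2.52, 2.27 and 4.49 in IT, and was called lower without replicate 4 (adjusted p = 8.50e-06, against 0.183 as the adjusted p with it), while no IT channel was well above background. The Wnt2 probe was then also called for a difference of this change from that in endothelial cells (adjusted p = 0.0152) and in Kupffer cells (adjusted p = 0.0303), beside 1.67% and 0.183% of all probes. As Wnt2 was at background on all IT, KC and KT channels, the sizes of these differences were not measured. In Kupffer cells without those arrays 1 member was called, Lrp6 by -0.90 (adjusted p = 0.0279), beside 3.85% of all probes, and Rspo3 gave -0.75, -0.77, -0.51 and 1.11 on the 4 arrays.

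Markers of other cells moved on the same arrays. The summed level of 7 neutrophil markers was higher in TME by 3.25, 3.84 and 2.71 on Ito replicates 1 to 3 and lower on replicate 4 (-3.16), and on the Kupffer arrays it moved by 1.84, 1.95, 1.43 and -2.03. On the endothelial arrays it was higher in TME on all 4, by 2.07 to 3.13, as were the macrophage markers, by 0.16 to 1.00, and the cycling markers, by 1.30 to 2.77. There the stellate markers moved by -0.92 to -0.32 and the endothelial markers by -0.96 to -0.20, lower on all 4 arrays, as Dkk3 was. The 10 endothelial markers moved by -0.85, -0.36, -0.57 and 0.81 on the Ito arrays and by -0.50, -0.48, -0.64 and 0.41 on the Kupffer arrays, the signs that Rspo3 and Fzd4 had there. Other lists moved otherwise on the Ito arrays. Macrophage markers moved by 1.68, -1.29, 1.67 and -1.80, hepatocyte markers by 1.41, -0.44, 1.29 and -1.40 and stellate markers by 0.67, -0.17, 0.75 and -1.24. In these lists replicate 2 had the sign of replicate 4. On the Kupffer arrays the signs of the endothelial list were shared by the epithelial and cholangiocyte markers (-1.22, -1.26, -1.27 and 1.21). Erythroid markers shared them too (-0.37, -0.17, -0.53 and 0.12). Macrophage markers moved there by 0.80, 0.87, 1.82 and -1.21, hepatocyte markers by -0.74, -0.68, 1.31 and 0.65 and stellate markers by -0.03, 0.01, 0.12 and -0.08. In Ito cells the neutrophil sum read 10.51, 10.45, 10.35 and 13.87 in IC and 13.77, 14.29, 13.06 and 10.71 in IT. The 2 groups thus overlapped only through replicate 4. In either group 4 of the 7 markers were well above background on all channels and none was at background throughout. The part of these cells in the member values was not tested.

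**Figure D4:**
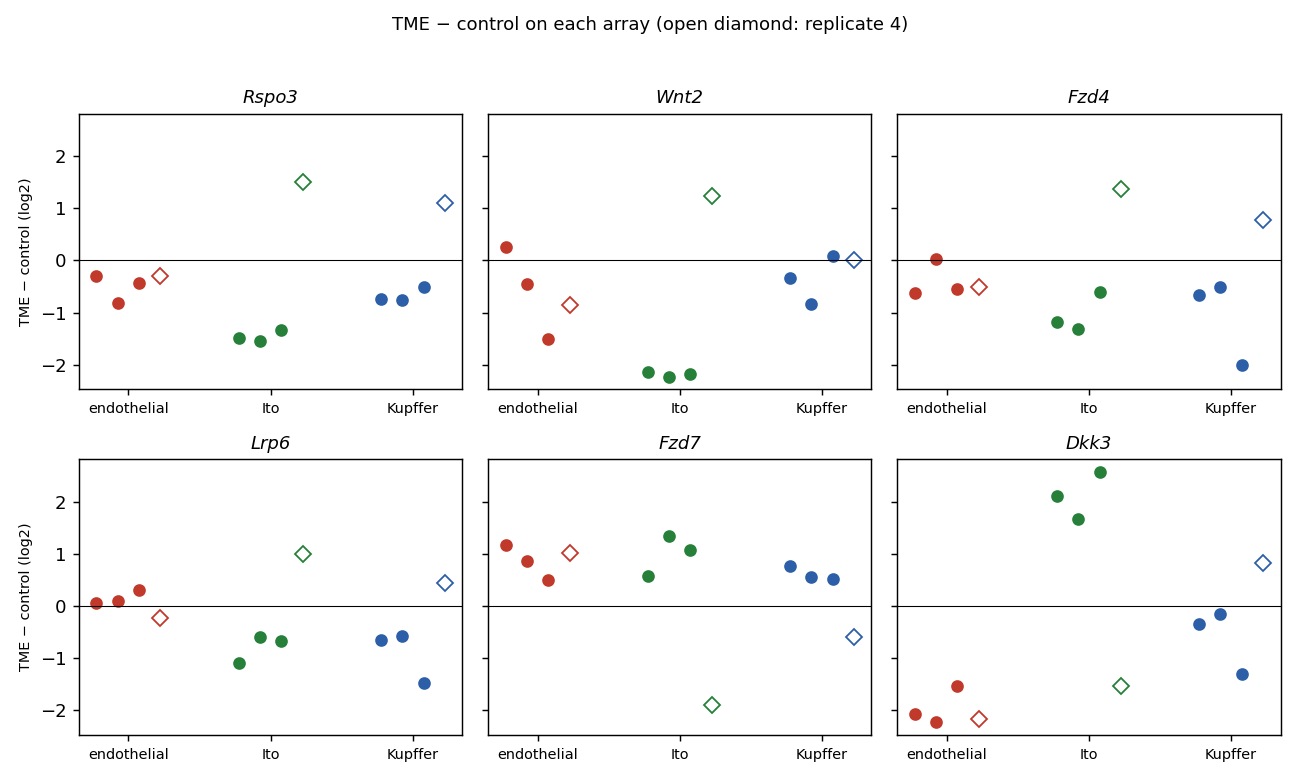
TME minus control difference (log2) of 6 members on each array of the 3 liver cell types, with replicate 4 as an open diamond. The diamonds of Ito cells lie on the other side of 0 from the other 3 arrays for all 6 genes, while Dkk3 is below 0 on all 4 endothelial arrays.

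Between TP and TM 1 of 57 member probes was called, lower in TP, beside 3.01% of all probes. It was the second Wnt16 probe, at background on all channels. An unadjusted p below 0.05 (limma) was reached by 13 of the 57, beside 9117 of all 55681 probes. Wnt10a was lower in TP without overlap (-0.68, SE 0.27, adjusted p = 0.191, exact permutation p = 0.0286). TM replicates 2 and 3 differed from replicates 1 and 4 in several members. They were lower in Wnt5a, Wnt5b, Wnt6, Dkk3 and Fzd1 and higher in Lef1, and the Lef1 and Fzd1 values of TP replicates 2 and 3, on the same arrays, stood apart likewise. The sum of the 12 stellate markers, 4 of which were at background in TM, was 14.47 and 14.73 in TM replicates 2 and 3, 15.47 and 17.02 in replicates 1 and 4, and 15.40 to 16.86 in TP. The sum of the 6 cycling markers was 12.77 and 13.35 in those 2 samples and 15.41 to 16.43 in the other tumor samples. The epithelial and cholangiocyte sum was higher in those 2 samples, at 13.34 and 13.44 against 11.87 and 12.01 in TM replicates 1 and 4. In the same order the macrophage sum was 11.75 and 11.17 against 12.06 and 12.88, and the neutrophil sum 9.70 and 9.49 against 10.03 and 11.04. The endothelial sum did not separate them, at 12.82 and 12.63 against 12.38 and 12.95. The part of any of these lists in the member values was not tested. Dkk3 (2.80, adjusted p = 0.122) and Lef1 (-1.47, adjusted p = 0.436) did not pass the test between TP and TM.

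**Figure D5:**
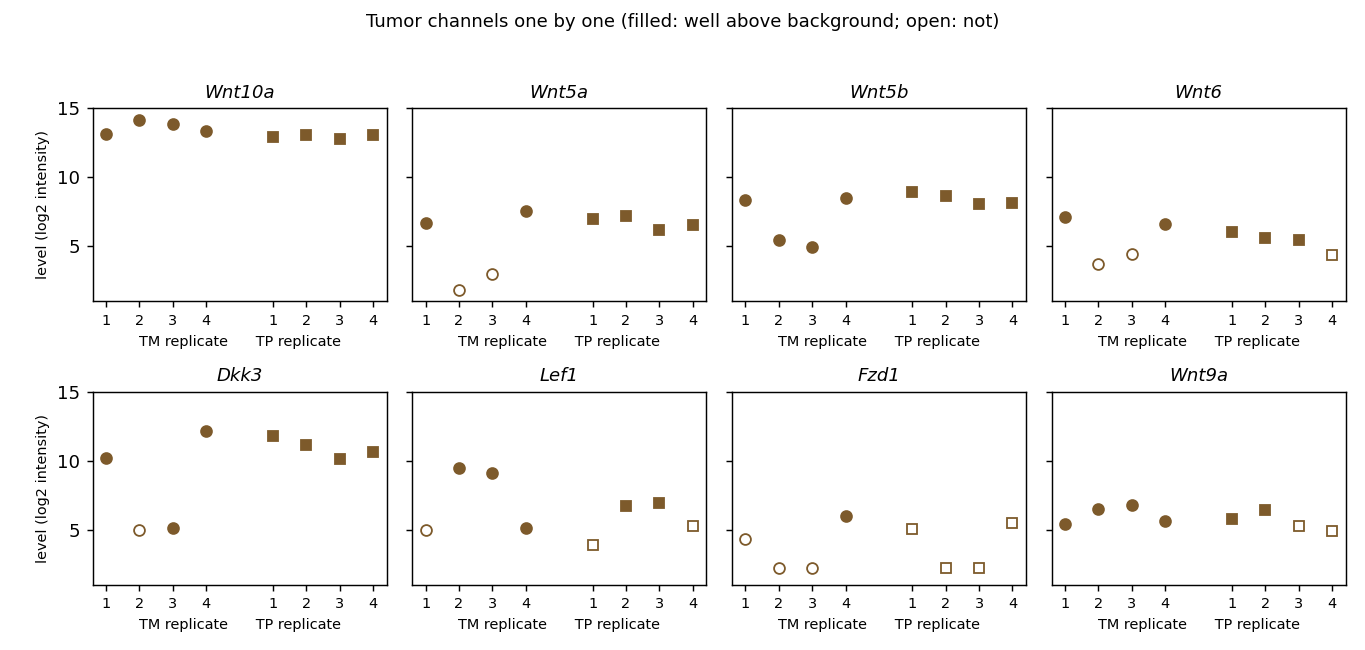
Levels (log2 intensity) of 8 members in the TM (circles) and TP (squares) samples one by one; filled points are well above background. TM replicates 2 and 3 are low for Wnt5a, Wnt5b and Dkk3 and high for Lef1, whereas Wnt10a stays between 12.79 and 14.15 in all 8 samples.

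A further 80 genes of the pathway were on the array, covering ligand secretion, other receptors, cytoplasmic and nuclear components and known targets. Of these 27 were higher and 24 lower in tumor than in Kupffer cells, or 63.8% beside 48.1% of all probes. Among the 61 found on all 4 channels of a group 72.1% were called, beside 74.7% of such probes. The 80 had a median difference of 0.03 beside 0.11 over all probes. Sox9, a target and transcription factor, was at least 6.44-fold higher (adjusted p = 2.28e-09) and Apcdd1, a membrane inhibitor of the pathway, at least 4.53-fold (adjusted p = 2.89e-10), both being at background on all Kupffer channels. The secreted protein Cthrc1, found on 4 of 8 Kupffer and 7 of 8 tumor channels, was higher by 4.65 (log2, SE 0.46, adjusted p = 6.24e-07). The secreted antagonist Frzb was at least 5.20-fold lower (adjusted p = 8.03e-13), the co-repressor Tle4 at least 7.47-fold (adjusted p = 3.48e-12) and the protease and target Mmp7 at least 2.46-fold (adjusted p = 3.64e-11), and all 3 were at background in tumor. In Ito against endothelial cells 7 of the 80 were higher and 25 lower, or 40% beside 17.1% of all probes, and 49.2% of the 61 found in a group were called beside 30% of such probes. The median was -0.11 beside 0.00 over all probes. The largest decreases were in Prickle2, a planar polarity protein (-2.37, SE 0.18, adjusted p = 1.44e-06, found on 3 of 8 Ito channels), Gpr124, a receptor for Wnt7 signals in vessels (-2.04, SE 0.34, adjusted p = 8.33e-04), and Nkd1, a target and inhibitor of the pathway (-1.46, SE 0.21, adjusted p = 2.27e-04). The largest increases were in the receptor Tnfrsf19 (2.38, SE 0.34, adjusted p = 2.30e-04, found on 1 of 8 endothelial channels), Mmp7 (1.55, SE 0.19, adjusted p = 6.38e-05) and the glutamine synthetase Glul, a target in hepatocytes around the central vein (0.92, SE 0.14, adjusted p = 3.35e-04). Between TME and control endothelial cells 1 of the 80 was called, or 1.25% beside 1.14% of all probes. Of the 61 found in a group 0% were called, beside 1.82% of such probes. The called gene was the target Sp5 (at least 1.38-fold higher in TME, adjusted p = 4.05e-03), at background in EC and well above it on 3 of 4 ET channels. In Ito and Kupffer cells 0 were called (limma), beside 0.289% and 0.436% of all probes. There 9 and 7 of the 80 reached an unadjusted p below 0.05, beside 5501 and 4106 of 55681 probes. Between TP and TM 1 was called, beside 3.01% of all probes: Chd8, a repressor of beta-catenin (-0.41, SE 0.11, adjusted p = 0.0353).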

How the data were processed

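Per the labels and methods, RNA of each sample was labelled with Cy3 or Cy5 and hybridised to 2-colour Agilent mouse arrays, read with Feature Extraction 10.7.3.1. The authors deposited 1 table of linear intensity values, quantile normalized over channels, and the scanner intensity files; 0 columns belonged to other series. Here log2 of the deposited intensity was analysed, and scanner flags gave which probes were well above background (none was saturated). R 4.3.3 and limma 3.58.1 were used.

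TME was compared with control, and TP with TM, in 1 limma fit of 32 channels in 8 groups. Cell types were compared in a limma fit of 16 array means. P-values were adjusted by Benjamini-Hochberg over 55681 probes, and 4 against 4 also by an exact two-sided permutation test. Lower bounds of folds came from normexp (offset 50), loess and Aquantile values. The number of arrays limits precision. On simulated data for endothelial TME against control, 24.0, 79.0 and 96.5% of 200 probes changed by 1, 2 and 4 (log2) were recovered among 55681. The simulated channels were independent, with a common spread in all groups for each probe. The real channels shared arrays and their groups differed in spread, so these shares may not hold for the real data.

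Printed values in every sample are those of genes called in a comparison within a slide, between TME and control or between TP and TM, and of those lost or gained without the replicate 4 arrays, which were chosen after their values were seen. Same-numbered samples shared an array, whose deviations correlated at -0.645 to 0.403. Alternatives were other background corrections and scalings, a filter, a replicate block, smaller fits, the methods' t-test and leaving out replicates. Members, lists and tests were chosen with earlier results of these data known. Proteins and the genome sequence were not used here.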

Additional observations from a re-analysis of the deposited data

Results flagged for a closer look

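In 97 groups of 4 samples (1 member in 1 group, well above background), 9 held a sample far from the other 3, and chance flags about 1 in 20 such groups. IC replicate 4 stood apart for 4 members: Rspo3 at 11.70 beside 13.12 to 13.23, Lrp6 at 9.08 beside 10.28 to 10.36, Fzd4 at 8.58 beside 9.64 to 9.79 and Dkk3 at 8.72 beside 6.85 to 7.07. KT replicate 4 stood apart for 3: Rspo3 at 11.72 beside 10.75 to 10.87, Fzd1 at 8.60 beside 9.09 to 9.15 and Wnt9a at 5.20 beside 4.65 to 4.67. ET replicate 2 read 8.37 for Fzd1 beside 9.75 to 9.85. KC replicate 3 read 7.12 for Znrf3 beside 8.39 to 8.53. Both replicate 4 channels belong to the arrays whose TME minus control differences ran against those of the other arrays of their cell type.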

How the results depend on the processing

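The dye layout, the slides and the number of arrays limit these results. The number of members called in tumor against Kupffer cells was 25, and 13 or 6 at an adjusted p below 0.001 with a 4-fold or 16-fold difference. At the same thresholds Ito against endothelial cells gave 1 and 1 (from 9), Kupffer against endothelial 3 and 1 (from 17) and Kupffer against Ito 2 and 0 (from 9). Of all 55681 probes, 15.2% passed the 4-fold threshold in tumor against Kupffer cells. Ito against endothelial cells had 454 higher and 247 lower there. Kupffer against endothelial cells had 1323 higher and 327 lower, and Kupffer against Ito 471 higher and 287 lower. The share of all probes at the 16-fold threshold is not given here, so the member counts there cannot be set against the array. The endothelial TME count rose from 0 to 1 (Dkk3) with only the groups compared in the fit and with the methods' t-test, beside 5.29% and 4.01% of all probes. The Ito TME count of 1 fell to 0 after normexp with either normalization, 75th percentile scaling, the filter on dim probes, fitting only Ito cells and both stricter thresholds. Apart from the thresholds, these settings called 0.142 to 0.448% of all probes tested. With the methods' t-test the count was 2, beside 2.22% of all probes. The TP against TM count of 1 fell to 0 with the scanner's own signals, 75th percentile scaling, the filter, the replicate block, only the groups compared, the methods' t-test and both thresholds. Apart from the thresholds, these settings called 0.361 to 3.2% of all probes tested. After normexp with quantile normalization the count was 2, beside 1.7% of all probes. Leaving out replicates gave 0 to 1 called members for endothelial TME, 0 to 8 for Ito TME, 0 to 2 for Kupffer TME and 0 to 4 for TP against TM. In that order these settings called 0.327 to 1.64, 0.154 to 7.83, 0.192 to 3.85 and 0.95 to 4.44% of all probes. Called members were 4 to 10 for Ito against endothelial, 20 to 26 for tumor against Kupffer, 14 to 19 for Kupffer against endothelial and 7 to 11 for Kupffer against Ito. Of all probes, 10.2 to 20.2, 41.9 to 49.3, 23.9 to 32.8 and 15.9 to 24.7% were called there. For the difference of the TME change 0 to 3 members were called, beside 0 to 1.67% of all probes. The settings that leave out Ito replicate 2, Kupffer replicate 3, or the Ito and Kupffer replicate 4 arrays were chosen after seeing the data. With the replicate block the Wnt4 call in Ito cells was lost (adjusted p = 0.0578), and of the genes that the text names no direction reversed under any alternative, while 59 of their values fell below and 7 rose above the threshold and 467 kept their side. The cause of these moves was not tested.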

Other observations

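The members include 4 pairs of ligand genes whose probes lie 19.1 to 90.1 kb from each other. Wnt10a and Wnt6 lie 19.1 kb apart on chromosome 1, and Wnt10a was well above background on 8 tumor channels where Wnt6 was so on 5. Wnt1 and Wnt10b lie 21.9 kb apart on chromosome 15, and Wnt1 was found on 32 channels and Wnt10b on 9, of which 8 were tumor. Wnt9a was found on 28 channels while Wnt3a, at 85.3 kb on chromosome 11, was found on 0. Wnt9b and Wnt3, at 90.1 kb on the same chromosome, were both found on 0.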
